A study of Mus musculus with 14 samples.

Results

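The comparison described here sets cultures of mouse oligodendrocyte precursor cells (OPCs) that had differentiated to Day3 without any siRNA against the same kind of culture at Day0. It used 6 of the 14 libraries of the series, in 3 groups of 2, which were Day0, Day3 non-treated (no transfection) and Day3 mock (transfection without siRNA). Its members were the genes with an FPKM of at least 1 in at least 2 of these 6 libraries, 11487 of the 23427 genes in the table. FPKM, the unit of every level below, counts fragments relative to how long a gene's exons are and how many fragments a library had mapped, so that levels of different genes are per length. All cultures came from the cortex of wild-type C57BL/6J pups in the first weeks of life, pooled over pups, by immunopanning, which holds cells on a dish coated with an antibody against Pdgfra. By the methods, the Day0 cells had grown with PDGF-AA and CNTF, and for Day3 PDGF-AA was taken away and the thyroid hormone T3 was added, so that time, loss of the growth factor and the hormone are joined in this contrast. The 2 libraries of a group came from separate cultures according to the methods. The methods name a different sequencer and read length for the differentiation series and for the siRNA series. All 6 libraries belong to the siRNA series. Whether the Day0 and Day3 libraries shared a run is not given in the sources used here. A difference of run between Day0 and Day3 therefore cannot be told apart from the day.

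OPCs are dividing glial cells that are kept in division by PDGF-AA acting on Pdgfra, whose signal runs through the ERK kinases. When the growth factor is lost and thyroid hormone binds its nuclear receptors, OPCs leave the cell cycle, pass through a committed stage and become oligodendrocytes (OLs), which make myelin, a stack of lipid-rich membrane held together by proteins such as Mbp. Making that membrane needs cholesterol, very long chain fatty acids and galactolipids, and the outgrowth of processes needs a rebuilt cytoskeleton.

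Markers of the oligodendrocyte lineage were present in both states. The precursor markers Pdgfra and Cspg4 were highest at Day0, the lineage factors Olig1, Olig2 and Sox10 were present in all 6 libraries, and the myelin genes Cnp, Mbp, Mag and Mog were highest at Day3. Of the markers of other cells, those of endothelial cells summed to 0.992 to 1.00 FPKM at Day0 and 1.27 to 1.72 at Day3, those of pericytes and fibroblasts to at most 0.529 FPKM, and those of microglia to 2.47 to 2.93 and 1.97 to 3.03 FPKM, with Aif1, C1qa, C1qb, C1qc and Tyrobp listed at 0 throughout. Astrocyte markers did rise and are given with the results below. The estimated depth was 31621200 and 22496800 fragments at Day0 and between 20064800 and 21353000 at Day3, so that for an exon length of 2 kb a total of 3 fragments stands for 0.047 to 0.075 FPKM. The SD over genes of the log2 difference between replicates was 0.183 for Day0, 0.147 for mock and 0.461 for non-treated, where 249 genes differed by more than 2-fold between the replicates. In the non-treated pair this difference followed the GC content of the genes (Spearman rho -0.781 across genes, which are not independent), and it did so in the Day0 pair as well (rho -0.505), but hardly in the mock pair (rho 0.0559). Results that rest on the non-treated pair are given beside those of the mock pair, and both share the Day0 libraries.

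A gene was called at a change of at least 2-fold with a Benjamini-Hochberg adjusted p under 0.05 over all 11487 genes, from a limma fit on log2(FPKM + 1) in which the mean of the non-treated and mock groups was set against Day0. By this rule 3085 genes were called, 26.9% of those tested. Of these, 1379 (12%) were higher and 1706 (14.9%) lower at Day3. The median log2 change over all genes tested was -0.11. In 3464 genes (30.2%) all 4 Day3 libraries lay above both Day0 libraries, and in 4716 (41.1%) all 4 lay below. Against Day0, the non-treated pair alone gave 3150 calls (27.4%) and the mock pair alone 3103 (27.0%). The 2 contrasts share the Day0 libraries and come from 1 fit of all 6 libraries, so that both use the spread of all 3 groups. Below, a pair alone means its contrast in that fit. Fitted without the non-treated libraries, the mock pair gave 3113 calls. The minimum on level favoured calls at the low end. Of the 709 genes that passed it through Day3 libraries alone, 330 were called higher, and of the 384 that passed through Day0 alone, 199 were called lower. Changes are given as log2(FPKM + 1) differences with their standard error (SE, 4 Day3 against 2 Day0 libraries), a scale that understates the change of low genes. Ratios are of mean FPKM.

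**Figure D1:**
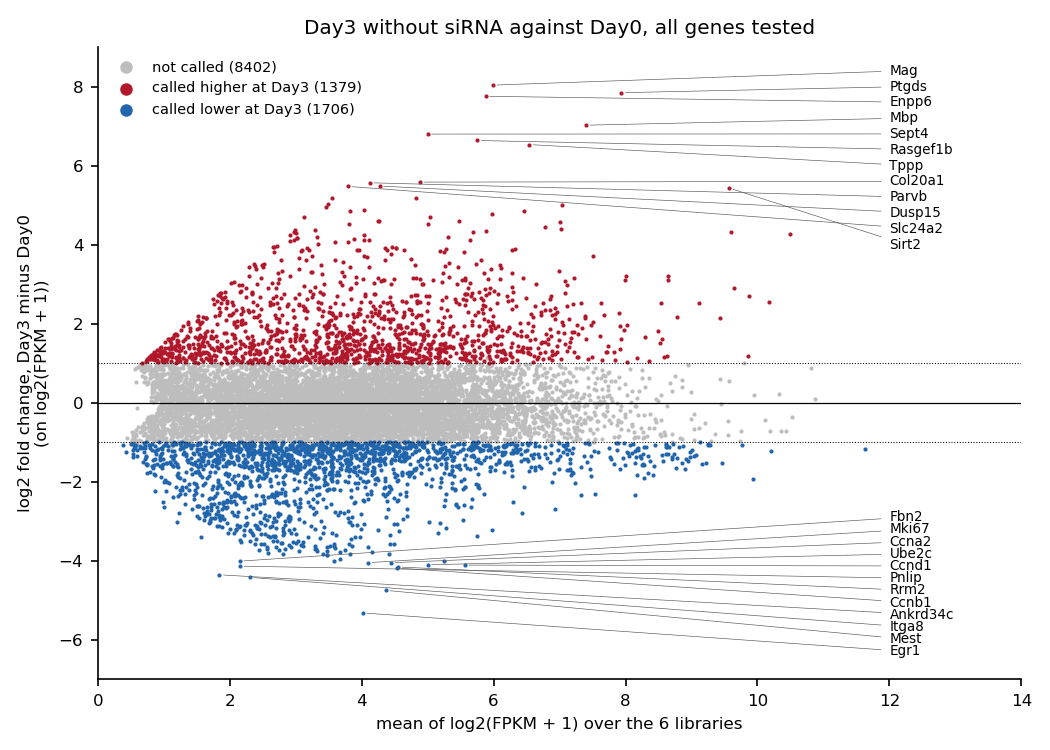
Each point is 1 of the 11487 genes tested, placed by its mean log2(FPKM + 1) over the 6 libraries (horizontal) and by its log2 change from Day0 to Day3 (vertical). Red points are the 1379 genes called higher, blue points the 1706 called lower, and grey points were not called. Dotted lines mark a 2-fold change. The 12 largest rises and falls are named. They were taken among called genes with a group mean of at least 10 FPKM and no overlap between the days.

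Genes were ranked among those called, with a group mean of at least 10 FPKM and no overlap between Day0 and Day3 libraries. The 12 largest rises were led by Mag, the myelin-associated glycoprotein (chromosome 7, 30899183 to 30914832, minus strand, mm10). Mag stood at 0.586 and 0.513 FPKM in the Day0 libraries, 528 and 294 in the non-treated and 419 and 415 in the mock libraries. All 4 Day3 libraries were far above Day0, where the gene was close to silent, with a log2 change of 8.03 ± 0.23, adjusted p = 5.27e-06. Its mean FPKM was 753 times that at Day0. Ptgds, the prostaglandin D synthase of the brain, had 5.85 and 5.19 FPKM at Day0, 1563 and 912 (non-treated) and 1772 and 1974 (mock), a log2 change of 7.84 ± 0.23. Enpp6, a choline-specific phosphodiesterase that marks newly formed OLs, had 0.660 and 0.609 FPKM at Day0, 304 and 515 (non-treated) and 315 and 309 (mock), a log2 change of 7.75 ± 0.21. The ratios of mean FPKM were 282 for Ptgds and 569 for Enpp6.

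Mbp, the basic protein that compacts myelin, and the septin Sept4, a filament-forming protein of myelin, came next. Mbp had 6.13 and 5.09 FPKM at Day0, 1188 and 710.0 (non-treated) and 799 and 792 (mock), a log2 change of 7.02 ± 0.22. Sept4 had 0.309 and 0.462 FPKM at Day0, 159 and 118 (non-treated) and 174 and 166 (mock), a log2 change of 6.80 ± 0.15. Absence of overlap between the days was a condition for entry here, so it is no result for Mbp or Sept4. Rasgef1b, an exchange factor for small GTPases, changed by 6.63 ± 0.11, from 1.39 and 1.62 FPKM at Day0 and 229 to 266 at Day3. Tppp, which promotes tubulin polymerisation, changed by 6.53 ± 0.11, from 3.67 and 3.46 FPKM at Day0 and 383 to 446 at Day3. The other 5 were the collagen gene Col20a1, beta-parvin (Parvb), the phosphatase Dusp15, the sodium-calcium exchanger Slc24a2 and the deacetylase Sirt2, with log2 changes from 5.43 to 5.58. Sirt2 differed from the other 4 in that it was already at 64.0 and 57.4 FPKM at Day0, and it reached 2152 to 3114 at Day3.

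By the same rule of entry, the largest fall was that of Egr1, an immediate early transcription factor. It stood at 204 and 174 FPKM in the Day0 libraries, 4.49 and 2.67 in the non-treated and 4.101 and 3.85 in the mock libraries. All Day3 libraries were low and the groups were far apart, with a log2 change of -5.33 ± 0.18, adjusted p = 6.97e-06, a mean FPKM 50.02 times higher at Day0. Mest, an imprinted gene, had 188 and 181 FPKM at Day0, 5.44 and 6.51 (non-treated) and 5.01 and 6.73 (mock) and a log2 change of -4.75 ± 0.15. Ankrd34c, an ankyrin repeat gene, had 26.4 and 25.4 FPKM at Day0, 0.282 and 0.378 (non-treated) and 0.253 and 0.330 (mock), and its mean was 83.4 times higher at Day0. Itga8, an integrin subunit that binds matrix, Pnlip, which encodes pancreatic lipase, and the fibrillin Fbn2 fell by factors of 47.6, 38.9 and 36.2 in mean FPKM. The remaining 6 were genes of the cell cycle. Cyclins Ccnb1, Ccna2 and Ccnd1, the ribonucleotide reductase subunit Rrm2, the ubiquitin-conjugating enzyme Ube2c and the proliferation marker Mki67 had log2 changes from -4.19 to -4.05.

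**Figure D2:**
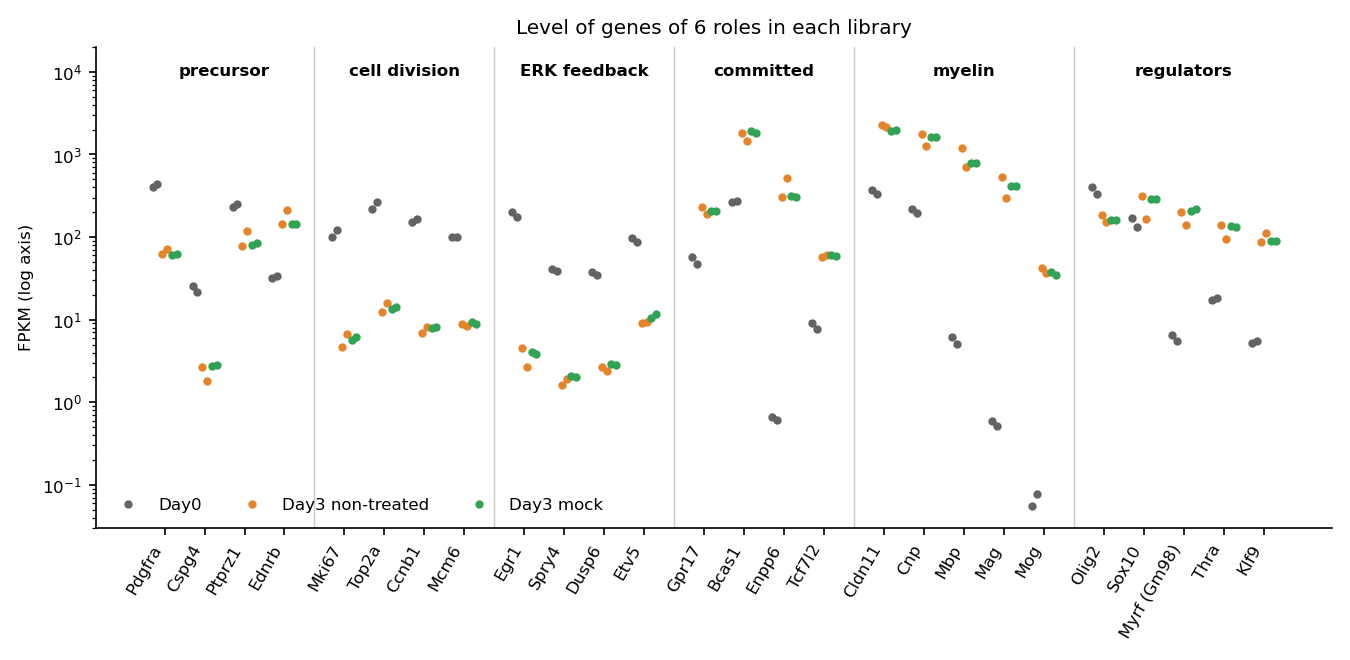
FPKM of 26 genes in each of the 6 libraries on a log axis, grouped by role, with grey points for Day0, orange for Day3 non-treated and green for Day3 mock. Precursor, cell division and ERK feedback genes sit lower at Day3 except Ednrb, committed and myelin genes sit higher, and among the regulators Olig2 is lower, Sox10 of non-treated replicate 2 lies at the Day0 level, and Myrf, Thra and Klf9 are higher.

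Precursor markers fell in part. Of 20 genes on that list, 18 passed the minimum on level, with a median log2 change of -0.97. Lower were 9 (50%, against 14.9% of all genes tested), 3 were higher (16.7%, against 12%) and 6 were not called. Pdgfra, the receptor by which the cells had been captured and through which PDGF-AA acts, stood at 409 and 436 FPKM in the Day0 libraries, 62.7 and 72.1 in the non-treated and 61.3 and 62.9 in the mock libraries. It was lower in every Day3 library, by -2.69 ± 0.12 on the log2 scale (adjusted p = 9.33e-06), yet remained well above the minimum. Cspg4, the NG2 proteoglycan, had 25.6 and 21.8 FPKM at Day0, 2.66 and 1.79 (non-treated) and 2.72 and 2.81 (mock), a log2 change of -2.83 ± 0.15. The protocadherin Pcdh15, the xylosyltransferase Xylt1 and the phosphatase receptor Ptprz1 were also lower, by -2.64, -2.49 and -1.42.

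Not every gene used as an OPC marker was lower at Day3. The endothelin receptor Ednrb had 31.9 and 33.6 FPKM at Day0, 145 and 211 (non-treated) and 143 and 145 (mock), a log2 change of 2.24 ± 0.17. Lhfpl3 had 70.7 and 73.7 FPKM at Day0, 157 and 288 (non-treated) and 176 and 179 (mock) and a log2 change of 1.42 ± 0.24. Both were higher in every Day3 library, and Gpr37l1 rose by 1.11, which was no longer past the threshold without Day0 replicate 2 (0.95) or without non-treated replicate 1 (0.93). The proteoglycans Vcan (-0.47, adjusted p = 0.0723) and Ncan (-0.28, adjusted p = 0.137) did not pass the test. In RNA of whole cultures, fewer cells of a type and less RNA of a gene per cell cannot be told apart, here and in every result below.

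All 40 genes on the list for cell division passed the minimum on level and all 40 were called lower, with a median log2 change of -3.63 beside -0.11 over all genes, and a range from -4.19 to -1.65. Together they made up 0.778 to 0.793% of the summed FPKM at Day0 and 0.0815 to 0.0899% at Day3. Mki67 stood at 99.6 and 122 FPKM in the Day0 libraries, 4.61 and 6.61 in the non-treated and 5.61 and 6.14 in the mock libraries. Top2a, the topoisomerase that untangles chromosomes, stood at 219.5 and 264 FPKM in the Day0 libraries, 12.3 and 16.0 in the non-treated and 13.6 and 14.2 in the mock libraries. In both genes every Day3 library lay far under either Day0 library, and the log2 changes were -4.05 ± 0.17 and -4.01 ± 0.15.

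Genes of replication and of mitosis were both among them. Of the helicase subunits that license replication, Mcm2, Mcm3, Mcm4, Mcm5, Mcm6 and Mcm7 changed by between -3.72 and -2.59. Ccne1, the cyclin of S phase entry, had 22.4 and 19.3 FPKM at Day0 and 3.16 to 4.57 at Day3 FPKM. The mitotic kinases Plk1, Aurka, Aurkb and Bub1 changed by -3.96, -3.40, -3.66 and -3.71. The smallest falls were those of E2f1, an activator of S phase genes (11.2 and 8.04 FPKM at Day0 and 1.47 to 2.998 at Day3), and of Pcna, the sliding clamp of DNA polymerase (301 and 312 FPKM at Day0 and 81.4 to 104 at Day3). Their log2 changes were -1.65 ± 0.23 and -1.72 ± 0.11. With a pseudocount of 5, E2f1 had a change of -0.98 and lost its call.

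The promoters of these genes were read for 2 short motifs known from cell cycle genes. One was an E2F motif, searched on both strands as TTTCCCGC, TTTGGCGC, TTTCGCGC or TTTGCCGC, and the other the cell cycle homology region (CHR), searched on both strands as TTTGAA. RefSeq promoters (GRCm38.p6, 250 bases before to 50 after a start) were on hand for 32 of the 40 genes, 33 promoters in all. The E2F motif was in 7 of the 33 (21.2%), against 2.27% of all 32851 promoters and 4.19% of the promoters of genes tested. The CHR was in 13 of the 33 (39.4%), against 17.9% of all promoters and 11.1% of those of genes tested. Among promoters of all genes called lower, 8.73% held the E2F motif and 17.5% the CHR, and among those of genes called higher 1.88% and 8.62%. A match is a description of the letters and does not show that a factor binds there. The following stretches of 30 bases are shown because they carry these motifs in genes of the list, with the motif in capitals and the build GRCm38.p6. The first 5 hold the E2F motif in 4 genes of replication and in Cdk1, the kinase that starts mitosis.
Mcm3 (chr1:20820275-20820304, minus strand): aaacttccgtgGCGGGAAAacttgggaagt
Mcm5 (chr8:75109345-75109374, plus strand): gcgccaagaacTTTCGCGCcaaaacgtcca
Mcm6 (chr1:128359797-128359826, minus strand): tggcgtatgctTTTGGCGCgaaaagtgcgt
Cdc6 (chr11:98908002-98908031, plus strand): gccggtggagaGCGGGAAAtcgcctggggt
Cdk1 (chr10:69353025-69353054, minus strand): tttccgctcccTTTCGCGCtctgcgctccc
The next 5 hold the CHR in genes of mitosis, among them a further stretch of the Cdk1 promoter.
Cdk1 (chr10:69352910-69352939, minus strand): taccgcggcgagTTTGAAactgctggcact
Ccnb2 (chr9:70421533-70421562, minus strand): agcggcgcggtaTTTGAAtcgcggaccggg
Plk1 (chr7:122159453-122159482, plus strand): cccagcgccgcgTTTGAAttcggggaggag
Cenpf (chr1:189688067-189688096, minus strand): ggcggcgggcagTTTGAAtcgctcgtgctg
Cdc20 (chr4:118437344-118437373, minus strand): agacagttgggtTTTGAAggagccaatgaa
The 3 replication helicase genes shown fell to 3.16 to 4.83 (Mcm3), 3.74 to 5.38 (Mcm5) and 8.49 to 9.36 FPKM (Mcm6). Cdc6, which loads the helicase, had 10.1 and 11.6 FPKM at Day0 and 0.537 to 0.814 at Day3. Cdk1, which holds both motifs, had 74.6 and 70.0 FPKM at Day0, 4.63 and 3.09 (non-treated) and 4.47 and 5.19 (mock), and its log2 change was -3.79 ± 0.16. The mitotic cyclin Ccnb2 changed by -3.72, the kinetochore gene Cenpf by -3.71 and Cdc20, which activates the ligase that ends mitosis, by -3.62.

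Genes that decide between another round of division and rest were lower in part, and their share called higher was close to that of all genes. Of 21, 17 passed the minimum on level, 7 were lower (41.2%, against 14.9% of all genes tested) and 2 higher (11.8%, against 12%). Ccnd1, the cyclin that links growth factors to the cycle, stood at 329 and 304 FPKM in the Day0 libraries, 16.3 and 14.5 in the non-treated and 19.96 and 18.8 in the mock libraries. Every Day3 library lay low, with a log2 change of -4.12 ± 0.11, adjusted p = 4.77e-06. Myc had 93.7 and 91.4 FPKM at Day0 and 16.3 to 25.9 at Day3 FPKM, and Rbl1, a relative of the retinoblastoma protein, had 21.6 and 22.4 FPKM at Day0 and 1.29 to 2.04 at Day3. The inhibitor gene Cdkn1a was higher, with 10.5 and 10.0 FPKM at Day0, 32.4 and 22.9 (non-treated) and 31.2 and 30.5 (mock) and a log2 change of 1.41 ± 0.16, and so was Ccng2, a cyclin of resting cells, at 1.70 ± 0.10. The inhibitor Cdkn1b, well known for OPC cell cycle exit, was at 54.5 and 48.6 FPKM at Day0, 46.9 and 47.8 (non-treated) and 48.9 and 47.3 (mock). Its groups overlapped and it did not pass the test (log2 change -0.11 ± 0.11, adjusted p = 0.421). Cdkn2a (-1.37) and Cdkn2c (-1.56) were lower.

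Genes that answer to ERK signalling were low at Day3, for which the methods give removal of PDGF-AA. Of 24 on that list 20 passed the minimum on level, and the median log2 change was -1.81. At the adjusted threshold 15 were lower (75%, against 14.9% of all genes tested) and none was higher. Spry4, an inhibitor of receptor kinase signalling, stood at 41.1 and 39.2 FPKM in the Day0 libraries, 1.63 and 1.89 in the non-treated and 2.10 and 2.03 in the mock libraries. Dusp6, the phosphatase that removes activating phosphates from ERK, stood at 37.6 and 35.2 FPKM in the Day0 libraries, 2.69 and 2.38 in the non-treated and 2.89 and 2.85 in the mock libraries. The groups were far apart in both genes, with log2 changes of -3.82 ± 0.11 and -3.34 ± 0.11. The ETS factors Etv5, Etv4 and Etv1 changed by -3.06, -1.94 and -1.76, and the inhibitors Spry1, Spry2, Spred2 and Spred3 by between -1.95 and -1.68. Not all immediate early genes followed Egr1. Fos had 80.8 and 70.3 FPKM at Day0, 57.2 and 45.3 (non-treated) and 65.7 and 67.8 (mock) and a log2 change of -0.37 ± 0.14 (adjusted p = 0.0565), and Jun had a log2 change of -0.54 ± 0.19 (adjusted p = 0.0501). Neither passed the test.

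Among the factors that work for OL differentiation, 19 of 22 passed the minimum on level. Higher were 8 (42.1%, against 12% of all genes tested), 2 were lower (10.5%, against 14.9%) and 9 were not called. The 22 include Znf365, the human symbol of Zfp365, which was not matched here and is counted on the opposing list below. Myrf, the membrane-bound factor that switches on myelin genes (listed in the table under its older symbol Gm98), stood at 6.49 and 5.53 FPKM in the Day0 libraries, 199 and 140.0 in the non-treated and 209 and 219 in the mock libraries. It was higher in all 4 Day3 libraries, with a log2 change of 4.76 ± 0.17, adjusted p = 6.97e-06. Tcf7l2, a Wnt effector of the committed stage, had 9.04 and 7.62 FPKM at Day0, 57.2 and 60.9 (non-treated) and 61.0 and 58.9 (mock) and a log2 change of 2.70 ± 0.12. Nfe2l3 (3.70), Zfp536 (2.92), Tsc22d4 (2.12), Sox8 (1.60) and Zfp488 (1.27) were also higher. St18, a zinc finger factor, was at 0.0272 and 0.0156 FPKM at Day0, under the level of 3 fragments, and at 8.06 to 16.3 at Day3.

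The lineage factors did not move together. Olig2 had 399 and 331 FPKM at Day0, 185 and 151 (non-treated) and 159.8 and 160.1 (mock), a log2 change of -1.15 ± 0.15, and Olig1 had 1107 and 869 FPKM at Day0 and 263 to 495 at Day3, a log2 change of -1.35 ± 0.27. Both were called lower, but without Day0 replicate 1 Olig1 had a change of -1.17 and an adjusted p of 0.0539. Sox10 had 168 and 133 FPKM at Day0, 313 and 167 (non-treated) and 285 and 291 (mock). Its Day3 libraries were above Day0 except non-treated replicate 2, and the log2 change of 0.77 ± 0.26 (adjusted p = 0.0402) was under 2-fold. In the mock pair alone the change of Sox10 was 0.94, and in the non-treated pair alone 0.61. Nkx2-2 (0.44, adjusted p = 0.129), the remodelling enzyme Smarca4 (-0.86) and Chd7 (-0.20) were not called.

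Factors that hold OPCs back from differentiation were split. Of 24, 22 passed the minimum on level, 9 were lower (40.9%, against 14.9% of all genes tested) and 5 higher (22.7%, against 12%), with a median log2 change of -0.87. The count lower was 12 in the non-treated and 7 in the mock pair alone. Besides Egr1, Etv5 and Etv4, the lower genes included Sox11 (83.1 and 78.2 FPKM at Day0 and 16.1 to 20.9 at Day3), Sox9 (29.1 and 25.2 FPKM at Day0 and 5.88 to 8.70 at Day3), Nfib, Id2 and Klf4. Higher at Day3 were Id4 (2.38 and 3.03 FPKM at Day0, 12.2 and 12.8 (non-treated) and 11.6 and 11.9 (mock)), Sox4 (63.2 and 53.6 FPKM at Day0, 207 and 160.2 (non-treated) and 219 and 218 (mock)), Hes5 (1.44 and 1.01 FPKM at Day0, 10.8 and 3.64 (non-treated) and 6.27 and 5.21 (mock)), Hey1 and Zfp365. Hes5 and Hey1 are targets of Notch, and Id proteins are partners that block other factors of their class. All 5 are on this list, but Zfp365 was also entered, under its human symbol Znf365, on the list for differentiation. Its place among the inhibitors is therefore uncertain, and it is 1 of the 5 counted higher. The log2 changes of the 5 lay between 1.66 and 1.83, and none of them overlapped between the days. Without Day0 replicate 2, Hes5 lost its call (adjusted p = 0.0598). Id2 and Klf4 lost theirs without the non-treated libraries (-0.81 and -0.88) and also under median-ratio (-0.96 and -0.97) and upper-quartile scaling (-0.97 for both), and under either scaling 7 genes of the list were lower.

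Genes of the committed stage between OPC and OL rose almost as a whole. All 20 passed the minimum on level, 18 were higher (90%, against 12% of all genes tested) and none was lower. The median log2 change was 2.68. Their share of the summed FPKM went from 0.186 to 0.189% to 1.86 to 1.95%. Sirt2 alone held 2152 to 3114 FPKM of the 6399 to 7568 FPKM of this list at Day3. Sirt2 is also counted among the main myelin proteins below. Bcas1, which marks cells about to make myelin, stood at 263 and 274 FPKM in the Day0 libraries, 1835 and 1465 in the non-treated and 1905 and 1805 in the mock libraries. Gpr17, a receptor that is transient in this stage, stood at 57.7 and 47.3 FPKM in the Day0 libraries, 229 and 192 in the non-treated and 204 and 208 in the mock libraries. Both were higher in each Day3 library, by 2.69 ± 0.15 and 1.97 ± 0.14 on the log2 scale. Fyn, the kinase that relays axonal contact, rose by 1.66 and the actin-linked Tns3 by 3.48. Bmp4, a secreted ligand, reached 3.03 to 4.82 FPKM from 0.111 and 0.201. The 2 members that did not pass the test were Nkx2-2 and Lims2 (14.1 and 11.8 FPKM at Day0 and 10.3 to 14.3 at Day3).

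The main myelin proteins took 0.359 to 0.384% of the summed FPKM at Day0 and 3.27 to 3.64% at Day3. Of 16 genes 15 passed the minimum on level, 13 were higher (86.7%, against 12% of all genes tested) and none lower. The median log2 change was 3.10. Cnp, an enzyme that keeps cytoplasm in the myelin sheath, stood at 219 and 197 FPKM in the Day0 libraries, 1777 and 1273 in the non-treated and 1630.1 and 1633 in the mock libraries. Cldn11, the claudin of myelin tight junctions, stood at 371 and 334 FPKM in the Day0 libraries, 2264 and 2145 in the non-treated and 1914 and 2002 in the mock libraries. Both were already at between 197 and 371 FPKM at Day0 and rose by 2.91 ± 0.17 and 2.56 ± 0.13. Mbp and Mag, in contrast, started from at most 6.13 FPKM.

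Some myelin genes did not rise. The glycoprotein gene Omg had 94.3 and 105 FPKM at Day0, 63.6 and 90.6 (non-treated) and 49.8 and 51.8 (mock) and was under 2-fold (-0.67 ± 0.16, adjusted p = 0.0122), and Gpm6b, a membrane glycoprotein, did not pass the test (-0.57 ± 0.23, adjusted p = 0.07). Mal and Ermn were called higher yet reached only 0.789 to 1.57 and 1.19 to 1.90 FPKM.

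Of the genes that are known from later stages of myelination, 25 of 30 passed the minimum on level, with a median log2 change of 1.72. Higher were 17 (68%, against 12% of all genes tested), and 1, Anln, was lower (4%, against 14.9%). Mog, a glycoprotein of the outer myelin surface (chromosome 17, 37010740 to 37023398, minus strand, mm10), stood at 0.0556 and 0.0781 FPKM in the Day0 libraries, 41.9 and 36.7 in the non-treated and 37.7 and 35.0 in the mock libraries. Mobp, a myelin basic protein of late sheaths, stood at 0.157 and 0.104 FPKM in the Day0 libraries, 17.0 and 15.9 in the non-treated and 20.6 and 20.4 in the mock libraries. Both were near absence at Day0 and clearly present at Day3, at levels well under those of Cnp. The ratio of mean FPKM was 142 for Mobp. Tmem88b (4.78 and 4.69 FPKM at Day0 and 100.1 to 106 at Day3) and Adamts4 (19.2 and 16.9 FPKM at Day0 and 70.4 to 111 at Day3), a protease of OLs, were also higher. Hapln2 and S1pr5 rose from under 3 fragments in at least 1 Day0 library to 1.09 to 1.60 and 1.97 to 2.98 FPKM. Aspa, Klk6, Ppp1r14a, Grm3 and Nipal4 stayed under 1 FPKM in every library. Trf, which encodes transferrin, was at 52.8 and 52.3 FPKM at Day0 and 73.1 to 90.5 at Day3 and under 2-fold, and the connexin Gjb1 (3.95 and 3.62 FPKM at Day0 and 0.908 to 2.56 at Day3) was not called. Anln encodes anillin, which acts in cell cleavage as well as in the myelin scaffold, and it had 23.6 and 24.2 FPKM at Day0, 2.05 and 2.93 (non-treated) and 2.28 and 2.41 (mock), a log2 change of -2.87 ± 0.14.

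Thyroid hormone receptors and their known targets were next compared, since the methods give T3 as added for differentiation. Of 20 genes 12 passed the minimum on level, 4 were higher (33.3%, against 12% of all genes tested) and none was lower. Thra, the alpha receptor for T3, stood at 17.5 and 18.3 FPKM in the Day0 libraries, 142 and 94.7 in the non-treated and 137 and 132 in the mock libraries. Klf9, a direct target of the receptor, stood at 5.23 and 5.57 FPKM in the Day0 libraries, 86.6 and 113 in the non-treated and 89.7 and 88.8 in the mock libraries. Hr, a corepressor and target of the receptor, stood at 19.8 and 16.1 FPKM in the Day0 libraries, 105 and 65.2 in the non-treated and 101 and 102 in the mock libraries. In all 3 genes every Day3 library was well above Day0, with log2 changes of 2.74 ± 0.17, 3.89 ± 0.14 and 2.29 ± 0.20. The clock-output factor Dbp rose by 1.48 ± 0.15. Thrb, the beta receptor, was at most 0.312 FPKM in any of the libraries, and the deiodinases Dio1, Dio2 and Dio3 were under the minimum. The corepressor Ncor1 and the coactivators Ncoa1 and Ncoa2 were not called.

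Few enzymes of cholesterol synthesis were called. All 21 passed the minimum on level, 2 were higher (9.52%, against 12% of all genes tested) and none was lower. The median log2 change was 0.30, in a range from -0.33 to 1.37. In 11 (52.4%, against 30.2% of all genes tested) all 4 Day3 libraries lay above both Day0 libraries. In 3 (14.3%, against 41.1%) all 4 lay below. The share of the 21 in the summed FPKM was 0.314 to 0.319% at Day0 and 0.398 to 0.454% or 0.455% at Day3. In the mock pair alone 4 were higher. Hsd17b7, an enzyme of the later steps, stood at 13.6 and 12.6 FPKM in the Day0 libraries, 33.3 and 40.7 in the non-treated and 34.2 and 34.5 in the mock libraries. It was higher in every Day3 library, by 1.37 ± 0.12. Hmgcs1, an enzyme of the early steps, had 207 and 208 FPKM at Day0, 332 and 410.3 (non-treated) and 366 and 370.4 (mock) and 0.83 ± 0.13 (adjusted p = 0.00206), a difference past the p threshold and under 2-fold. Squalene epoxidase (Sqle), Dhcr7 and Idi1 had changes of -0.16, -0.26 and -0.33 and did not pass the test (adjusted p = 0.232, 0.173 and 0.13).

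Genes that move sterol and control its level held larger changes. Of 19, 16 passed the minimum on level, 5 were higher (31.2%, against 12% of all genes tested) and none lower. Abca1, which exports cholesterol from cells, stood at 0.385 and 0.511 FPKM in the Day0 libraries, 18.1 and 25.3 in the non-treated and 28.5 and 31.8 in the mock libraries. Apoe, the lipoprotein that carries lipid between brain cells, stood at 5.18 and 5.12 FPKM in the Day0 libraries, 29.8 and 16.5 in the non-treated and 39.7 and 36.6 in the mock libraries. Abca1 rose 57.8-fold in mean FPKM (log2 change 4.19 ± 0.16, adjusted p = 7.66e-06) and Apoe by 2.29 ± 0.23. Npc1 and Npc2, which release cholesterol from lysosomes, rose by 1.31 and 1.32, and Lpin1 by 1.37. The master factor Srebf2 (-0.03 ± 0.16, adjusted p = 0.885) did not pass the test. In the limma fit without the non-treated libraries it was at 0.209 (adjusted p = 0.029), under 2-fold.

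**Figure D3:**
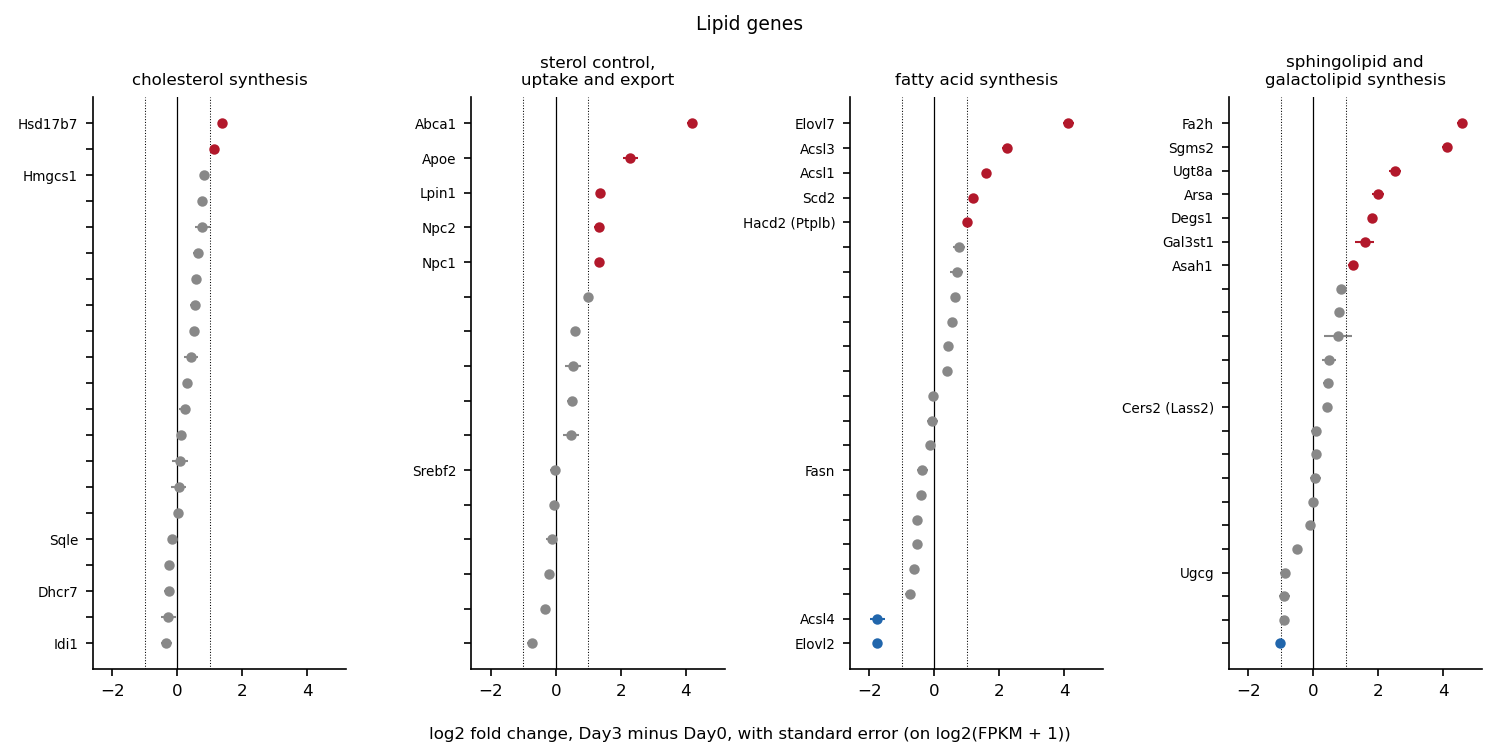
Log2 change from Day0 to Day3 with its standard error for the tested genes of 4 lipid lists, sorted within each panel and labelled where the text names the gene, with red for called higher, blue for called lower and grey for not called. Dotted lines mark a 2-fold change, and the cholesterol enzymes stay between -0.33 and 1.37 while Abca1, Elovl7, Sgms2 and Fa2h lie above 4.

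In fatty acid synthesis 22 of 26 genes passed the minimum on level, 5 were higher (22.7%, against 12% of all genes tested) and 2 lower (9.09%, against 14.9%). Elovl7, an elongase of very long chain fatty acids, stood at 6.49 and 6.44 FPKM in the Day0 libraries, 122 and 174 in the non-treated and 114 and 114 in the mock libraries. Every Day3 library was above Day0 and the log2 change was 4.12 ± 0.16, adjusted p = 7.86e-06. The acyl-CoA synthetases Acsl3 (2.22) and Acsl1 (1.60), the desaturase Scd2 (1.18) and Hacd2 (listed as Ptplb, 1.02) were higher. Acsl4 (34.5 and 35.9 FPKM at Day0 and 7.50 to 13.7 at Day3), which prefers polyunsaturated fatty acids, and the elongase Elovl2 (4.54 and 4.03 FPKM at Day0 and 0.506 to 0.586 at Day3) were lower. Fatty acid synthase itself, Fasn, had 129.8 and 117 FPKM at Day0, 96.1 and 67.0 (non-treated) and 109.9 and 115 (mock) and did not pass the test (adjusted p = 0.0953).

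The pathway to galactolipids, the lipids that are typical of myelin, moved at several steps. Of 24 genes of sphingolipid and galactolipid synthesis, 23 passed the minimum on level. Higher were 7 (30.4%, against 12% of all genes tested) and 1 was lower (4.35%, against 14.9%). Fa2h, which adds the hydroxyl group to the fatty acids of these lipids, stood at 1.56 and 1.03 FPKM in the Day0 libraries, 61.1 and 46.1 in the non-treated and 53.2 and 56.6 in the mock libraries. Ugt8a, which joins galactose to ceramide, stood at 60.7 and 60.6 FPKM in the Day0 libraries, 319.8 and 504 in the non-treated and 308 and 309 in the mock libraries. Gal3st1, which makes sulfatide from that product, stood at 15.3 and 12.2 FPKM in the Day0 libraries, 54.3 and 25.2 in the non-treated and 49.3 and 51.5 in the mock libraries. Their log2 changes were 4.59 ± 0.16, 2.52 ± 0.19 and 1.59 ± 0.29, and the smallest gap to Day0 was in non-treated replicate 2 for Gal3st1. Sgms2, a sphingomyelin synthase, rose by 4.11 ± 0.13 from 0.186 and 0.161 FPKM. Degs1, Arsa and Asah1 were also higher. Ugcg, which instead joins glucose to ceramide, had a change of -0.87 ± 0.15 and was under 2-fold, and the ceramide synthase Cers2 (listed as Lass2) was at 0.43 ± 0.13.

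Of 38 genes of the cytoskeleton 35 passed the minimum on level, 12 were higher (34.3%, against 12% of all genes tested) and 9 lower (25.7%, against 14.9%). The beta-tubulins, which form microtubules with the alpha-tubulins, changed their order. Tubb4a stood at 107 and 101 FPKM in the Day0 libraries, 2415 and 1496 in the non-treated and 2359 and 2275 in the mock libraries. Tubb5 stood at 793 and 719 FPKM in the Day0 libraries, 211 and 154 in the non-treated and 217 and 222 in the mock libraries. Tubb4a was the low gene of this pair in both Day0 libraries and the high gene in all 4 Day3 libraries, with log2 changes of 4.33 ± 0.21 for Tubb4a and -1.92 ± 0.16 for Tubb5. Of the summed FPKM of 8 beta-tubulin genes, Tubb4a made up 5.49 to 5.61% at Day0 and 72.2 to 73.6% at Day3, and Tubb5 went from 40.1 to 40.9% to 6.39 to 7.57%. Tubb2b and Tubb2a fell from 21.1 to 22.8% and 16.4 to 16.8% to 5.70 to 6.31% and 3.29 to 3.38%. Tubb6 changed by -3.19 ± 0.14 and Tubb3, widely used as a marker of neurons, rose by 1.70 ± 0.24. The shares of near-identical paralogs are uncertain to the extent that reads were split among them in counting.

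**Figure D4:**
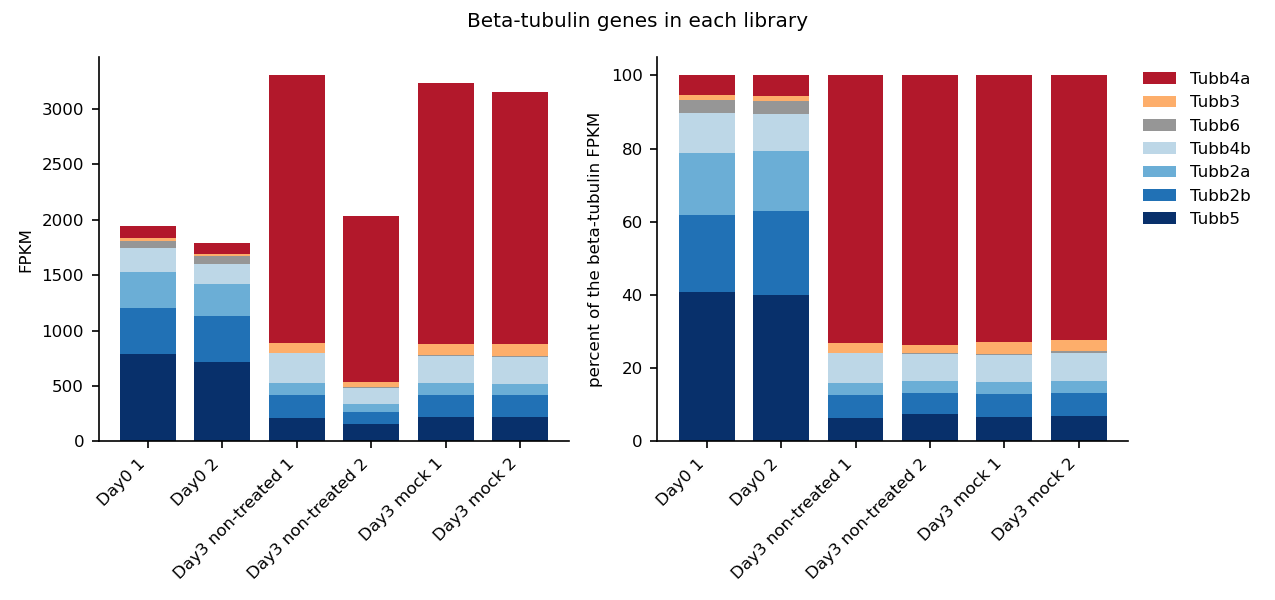
Stacked bars of the beta-tubulin genes in each library, as FPKM (left) and as percent of their sum (right), without Tubb1, which was listed at 0. Tubb4a takes 5.49 to 5.61% of the sum at Day0 and 72.2 to 73.6% at Day3, also in non-treated replicate 2, where the summed level is lower than in the other Day3 libraries.

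Other proteins of the cytoskeleton differed by gene. The microtubule-associated Map1b (listed as Mtap1b) had 3.32 and 4.103 FPKM at Day0, 31.6 and 46.8 (non-treated) and 39.2 and 39.4 (mock) and Mapt, which encodes tau, had 28.7 and 23.6 FPKM at Day0, 92.2 and 69.6 (non-treated) and 109.8 and 107 (mock). Both were higher, by 3.09 ± 0.18 and 1.80 ± 0.15. Map2 (listed as Mtap2), best known from dendrites, had 195 and 214 FPKM at Day0, 52.4 and 78.4 (non-treated) and 58.9 and 58.2 (mock) and was lower by -1.72 ± 0.18 on the signed log2 scale. Stathmins split as well, with Stmn1 at -1.43 and Stmn4 at 2.37. Of the other septins, Sept2 (-0.02 ± 0.15, adjusted p = 0.903), Sept7 (0.63 ± 0.21) and Sept8 (-0.62 ± 0.11) were not called.

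Matrix and adhesion genes moved in both directions, and 33 of 43 on the list passed the minimum on level. Higher were 15 (45.5%, against 12% of all genes tested) and 9 were lower (27.3%, against 14.9%). Nfasc, which encodes the adhesion molecule neurofascin, stood at 12.5 and 11.6 FPKM in the Day0 libraries, 417 and 371 in the non-treated and 422 and 448 in the mock libraries. All 4 Day3 libraries were high, with a log2 change of 4.99 ± 0.12, adjusted p = 4.19e-06. Sparcl1 and Sparc, secreted matrix proteins, rose by 4.33 ± 0.10 and 3.46 ± 0.12, and the adhesion molecules Cadm1, Cadm2 and Cadm4 by between 1.58 and 2.58. The collagen chain Col11a2 had 1.08 and 0.698 FPKM at Day0 and 9.09 to 16.9 at Day3 FPKM. Falls were seen for the integrin subunits Itga8, Itga1 (10.8 and 11.8 FPKM at Day0 and 1.12 to 2.19 at Day3) and Itgav (64.6 and 62.1 FPKM at Day0 and 22.7 to 37.2 at Day3), for Tnc, a matrix glycoprotein (5.47 and 5.75 FPKM at Day0 and 0.297 to 0.515 at Day3), and for the axonal contact protein Cntn1 (372 and 399 FPKM at Day0 and 78.8 to 125 at Day3). Itga2 was listed at 0 in both Day0 libraries and at 1.64 to 2.49 FPKM at Day3. The partner of the alpha subunits, Itgb1, had 192 and 205 FPKM at Day0, 184 and 241 (non-treated) and 177 and 174 (mock) and did not pass the test (-0.05 ± 0.14, adjusted p = 0.8).

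Of 51 ion channels and receptors for transmitters 39 passed the minimum on level, 7 were higher (17.9%) and 9 lower (23.1%), shares not far from the 12% and 14.9% of all genes tested. Kcna1, a subunit of delayed rectifier potassium channels, stood at 12.5 and 12.2 FPKM in the Day0 libraries, 156 and 229 in the non-treated and 199.6 and 202 in the mock libraries. Kcnj10, the inward rectifier of mature glia, stood at 50.1 and 47.5 FPKM in the Day0 libraries, 158 and 161 in the non-treated and 167 and 169 in the mock libraries. Both were higher in each Day3 library, by 3.88 ± 0.17 and 1.73 ± 0.10, and Kcna2 by 2.39 ± 0.15. The metabotropic receptor Grm7 rose from 0.0983 and 0.0957 to 18.3 to 24.3 FPKM. Of the AMPA receptor subunits, Gria3 was lower (23.9 and 26.9 FPKM at Day0 and 3.88 to 7.19 at Day3), Gria1 was higher (0.171 and 0.157 FPKM at Day0 and 2.53 to 5.47 at Day3), and Gria2 (0.62 ± 0.18) and Gria4 (-0.36 ± 0.17, adjusted p = 0.106) were not called. The purinergic receptor P2rx7 (-2.48) and the muscarinic receptor Chrm1 (-1.84) were lower.

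Genes of cytosolic ribosomal proteins were lower as a group. Of 82 cytosolic ribosomal protein genes 79 passed the minimum on level, and the median log2 change was -1.21. Called lower were 60 (75.9%, against 14.9% of all genes tested), and none was higher. All 4 Day3 libraries lay under both Day0 libraries in 78 of the 79 (98.7%, against 41.1% of all genes tested), the exception being Rpl34. These genes took 11.6 to 12.1% of the summed FPKM at Day0 and 4.62 to 6.28% at Day3. Rpl12 stood at 779 and 814 FPKM in the Day0 libraries, 272 and 163 in the non-treated and 239.8 and 238 in the mock libraries. Its level was lowest in non-treated replicate 2, and the log2 change was -1.82 ± 0.21. Many of these genes have pseudogene copies, so that single values are uncertain. In the non-treated pair alone 62 were lower and in the mock pair alone 50. Of 76 mitochondrial ribosomal protein genes 8 were called lower, 10.5% and so under the 14.9% of all genes tested. Their median was -0.56 beside -0.11 over all genes. In 57 of the 76 (75%, against 41.1% of all genes tested) all 4 Day3 libraries lay under both Day0 libraries. Most of these genes were thus lower at Day3 without being called. Of 74 tested genes of the respiratory chain and ATP synthase 1 was called lower, Atp5g1 (1.35%), with a median of -0.20 beside -0.11 over all genes.

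In glycolysis 23 of 25 genes passed the minimum on level, with a median log2 change of -0.43. Lower were 5 (21.7%, against 14.9% of all genes tested) and 1 was higher (4.35%, against 12%). Ldha, which makes lactate, had 215 and 203 FPKM at Day0, 70.4 and 52.9 (non-treated) and 69.4 and 75.9 (mock), a log2 change of -1.63 ± 0.15. The kinase Hk2 (-1.62 ± 0.12), Pkm (-1.14 ± 0.20), Gapdh (-1.10 ± 0.17) and Ldhb (-1.001 ± 0.16) were lower too, and 3 of the 5 were past the threshold when libraries were scaled by median ratio. Without non-treated replicate 2, the changes of Pkm, Gapdh and Ldhb were -0.97, -0.97 and -0.88, under 2-fold. Eno2, the enolase first described in neurons, had 1.45 and 1.64 FPKM at Day0, 29.6 and 22.5 (non-treated) and 31.9 and 32.6 (mock), a log2 change of 3.55 ± 0.14, and went from 0.935 to 1.19% to 24.0 to 28.5% of the FPKM of the 3 enolases, while Eno1 had a change of -0.93 ± 0.21 and was under 2-fold (-1.11 and called without non-treated replicate 1).

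Among genes of amino acid supply and stress, 22 of 23 passed the minimum on level, 6 were lower (27.3%, against 14.9% of all genes tested) and 3 higher (13.6%, against 12%). Slc7a5, the carrier of large neutral amino acids and also of thyroid hormone, stood at 112 and 99.7 FPKM in the Day0 libraries, 11.2 and 7.77 in the non-treated and 10.9 and 11.6 in the mock libraries. Mthfd2, of mitochondrial folate metabolism, stood at 42.7 and 47.5 FPKM in the Day0 libraries, 6.33 and 5.00 in the non-treated and 5.69 and 5.85 in the mock libraries. They fell in all Day3 libraries, with log2 changes of -3.24 ± 0.16 and -2.78 ± 0.13, and Phgdh, Shmt2 and Asns changed by -2.15, -1.90 and -1.63. Atf3, Ddit4 and Ddit3, which stress induces, rose by 1.76, 1.70 and 1.31. The chaperone Hspa5 (-0.34 ± 0.12) and Atf4 (-0.29 ± 0.18, adjusted p = 0.203) were not called.

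The study is centred on Secisbp2l, a relative of the protein Secisbp2 that helps ribosomes read UGA as selenocysteine, and its gene and those of selenoproteins were read in these libraries. This list was assembled around the study's own genes, so that its direction is not independent evidence. Besides genes of selenoproteins and of selenocysteine insertion it holds Larp6, Qk and Tppp. Of 23 genes 22 passed the minimum on level, 5 were higher (22.7%, against 12% of all genes tested) and 2 lower (9.09%, against 14.9%). Tppp, described above (6.53), was 1 of those called higher. Secisbp2l stood at 30.4 and 31.5 FPKM in the Day0 libraries, 157 and 223 in the non-treated and 159 and 159 in the mock libraries. It was higher in every Day3 library, by 2.44 ± 0.16. Secisbp2, in contrast, stood at 12.3 and 12.7 FPKM in the Day0 libraries, 13.2 and 12.04 in the non-treated and 12.4 and 12.6 in the mock libraries, with overlapping groups and a log2 change of 0.01 ± 0.11 (adjusted p = 0.963). The peroxidase Gpx4, which protects membrane lipids, had 81.4 and 77.5 FPKM at Day0, 299 and 184 (non-treated) and 251 and 254 (mock) and rose by 1.60 ± 0.20. Txnrd1, the cytosolic thioredoxin reductase, had 214 and 218 FPKM at Day0, 64.7 and 58.4 (non-treated) and 69.0 and 70.9 (mock) and changed by -1.70 ± 0.11. Eefsec, the elongation factor for selenocysteine, was lower (-1.25 ± 0.13), and Gpx1 (-0.83 ± 0.22) and the selenophosphate synthase Sephs2 (-0.64 ± 0.14) were under 2-fold.

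Markers of astrocytes moved with the day. Of 12, 9 passed the minimum on level, 4 were higher (44.4%, against 12% of all genes tested) and none lower. The summed FPKM of the 12 went from 129.7 to 145 at Day0 to 304 to 389.9 at Day3. Gfap, the intermediate filament of astrocytes, stood at 0.677 and 0.755 FPKM in the Day0 libraries, 55.9 and 36.8 in the non-treated and 52.2 and 54.9 in the mock libraries. Aldh1l1, a folate enzyme used as an astrocyte marker, stood at 0.246 and 0.202 FPKM in the Day0 libraries, 7.13 and 4.45 in the non-treated and 6.03 and 6.56 in the mock libraries. Both were near absence at Day0 and present in all Day3 libraries, with log2 changes of 4.87 ± 0.18 and 2.51 ± 0.17. Atp1b2 (1.49 ± 0.16) and Slc4a4 (1.25 ± 0.13) were higher as well. The water channel Aqp4 reached at most 0.608 FPKM, Gja1 at most 0.031 and Gjb6 was listed at 0. Ednrb, Sparcl1, Apoe and Kcnj10, described above, are also known from astrocytes, and the part of such cells in these results was not tested. Of the neuron markers 7 of 14 passed the minimum on level. Besides Tubb3, which was higher, the neurofilament genes Nefl (11.4 and 9.88 FPKM at Day0 and 1.47 to 1.92 at Day3) and Nefm (12.3 and 12.9 FPKM at Day0 and 2.59 to 3.92 at Day3) and the synaptic Syt1 were lower.

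Mock transfection was last set against no treatment at Day3. No gene passed the adjusted threshold of limma (0.00% of 11487), 813 had an unadjusted p under 0.05, and 1 gene was called when all 14 libraries of the series were fitted together. Without non-treated replicate 1 the count was 119 and without non-treated replicate 2 it was 4. The gene with the lowest p, named after its values were seen, was Cd44, a receptor for hyaluronan, with 1.30 and 1.30 FPKM at Day0, 5.63 and 5.62 (non-treated) and 15.6 and 17.0 (mock) and a log2 difference, mock minus non-treated, of 1.38 ± 0.12 (adjusted p = 0.227). The list medians against the same Day0 libraries were 2.98 (non-treated) and 3.03 (mock) for the main myelin proteins, -3.67 and -3.51 for cell division, and -1.94 and -1.73 for ERK feedback. In other lists they were -0.64 and -0.32 for cell cycle control, 0.38 and 0.70 for thyroid hormone genes, -1.03 and -0.75 for factors against differentiation, 0.37 and 0.62 for sterol control, and 0.20 and 0.39 for cholesterol synthesis. These differences were not tested. A count of 0 at this size does not show that transfection left the cells as they were.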

How the data were processed

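RNA from 14 libraries was sequenced, and 6 of them, in 3 groups of 2 taken from the sample labels, were used here. The authors mapped paired-end reads with OmicSoft ArrayStudio to mm10 and the refGene gene model, and deposited FPKM values (in a table presented as counts, with no further normalisation stated). Their second table, from which only coordinates and exon length were used, holds their own comparisons made with DESeq2 (fold changes and p-values), which were not used. The non-treated columns are named by day only and were matched by name. Aligner and counting settings are not given in the sources used here. The labels describe growth in DMEM with serum, whereas the methods describe a medium with growth factors.

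Depth was estimated from the steps between low FPKM values, of which 89.3 to 91.7% of those of single-transcript genes in the 6 libraries came out whole within 0.1. Such estimates cover counting error only. Replicates differed by more than sampling noise (mean chi-square 2.82 to 49.0 for a gene), so none were merged.

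Genes that reached 1 FPKM in 2 or more of these libraries were tested on log2(FPKM + 1) with limma 3.58.1 in R 4.3.3, with 1 mean for each group, intensity trend and robust moderation (3 residual and a median of 3.21 prior degrees of freedom), two-sided, with Benjamini-Hochberg adjustment over 11487 genes. The script was tested on simulated data. Genes named were the 12 largest rises and falls among called genes with a group mean of at least 10 FPKM and no overlap, and members of gene lists by largest change and best known role. The members and lists were chosen with earlier results of these data known. Lists are given by counts and medians, with no test of a list, and some of their genes are counted but not reported here. Older symbols of the table were matched by hand. RefSeq promoters of GRCm38.p6 were searched for exact letters. Alternatives were other scalings, pseudocounts, minimums, moderation and call rules, all 14 libraries fitted, a replicate block, and each library left out. After seeing the data, removal of a GC trend and a fit without the non-treated libraries were added. No per-sample column was without a label.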

Additional observations from a re-analysis of the deposited data

How the results depend on the processing

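The counts of genes called against Day0 moved by more than 1.5 times under 2 alternatives. A pseudocount of 5 gave 1911 calls for Day3, 1913 for non-treated and 1902 for mock, and a rule without a fold change gave 6959, 6406 and 6349. In the other alternatives the Day3 count lay between 2696 (minimum of 5 FPKM) and 3755 (pseudocount of 0.1). Median-ratio scaling moved the median log2 change of all genes from -0.11 to -0.01 and gave 1538 calls higher and 1463 lower. Upper-quartile scaling gave 1524 and 1495. Leaving out 1 library at a time gave 3039 to 3144 calls for Day3, 3035 to 3438 for non-treated, 2954 to 3112 for mock and 0 to 119 for mock against non-treated, where the fit of all 14 libraries gave 1. Without the non-treated libraries 3113 genes were called, and with the GC trend removed 3070. With the replicate number as a block 3090 genes were called (3157 non-treated, 3112 mock, 0 between the Day3 groups). The replicate differences of Day0 correlated with those of non-treated at 0.479 and with those of mock at -0.0872, and the samples share only a number.

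For 223 named genes, 3688 of 3779 values under alternatives stayed on their side of the threshold and kept their direction, 57 lost the call, 9 gained one and 25 changed sign. The sign changes were all in genes that were not called and whose change in the main fit was close to 0. By median-ratio scaling Cdkn1b had 0.0019, Itgb1 0.0642, Lims2 0.0639, Sept2 0.0873 and Srebf2 0.0792, and by upper-quartile scaling Itgb1 had 0.0518, Lims2 0.0525, Sept2 0.0749 and Srebf2 0.0670. With the GC trend removed Itgb1 had 0.00756, Sept2 0.0256 and Secisbp2 -0.00956. Without the non-treated libraries Lims2 had 0.00636, Srebf2 0.209 (limma adjusted p = 0.029, under 2-fold) and Secisbp2 -2.34e-07. With 1 library left out, Itgb1 ranged from -0.143 to 0.0507, Lims2 from -0.154 to 0.0770, Sept2 from -0.129 to 0.0825, Srebf2 from -0.158 to 0.0980 and Secisbp2 from -0.0247 to 0.0380. The pseudocount of 5 ended 22 calls. Some were of genes whose levels were low in every library, such as Mal, Ermn, Hapln2, S1pr5 and Bmp4. Others, such as Ldhb (-0.93) and E2f1 (-0.98), were not low in every library. The calls of Atp5g1, Ptplb and Syt1, which lay near 2-fold, were lost under several settings. Of the genes not called, Gpx1 (-1.03) and Rpl34 (-1.14) were called without non-treated replicate 1, and Ugcg (-1.004) without the non-treated libraries.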
